A study of Homo sapiens with 20 samples.

Results

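Of the 8587 BCOR peaks that were called shared between vehicle and hormone, 3063 (35.7%) had their centre within 1000 bp of a transcription start site (TSS) of any transcript in the count table, and these promoter peaks are described here. They make up 3063 of the 11909 BCOR peaks in the 3 deposited lists. The rule used position alone, so no expression value entered the choice of peaks. The start sites belonged to 3427 gene symbols, of which 3133 had enough reads to be tested and 2964 code for protein.

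HEK293-GR is a human embryonic kidney cell line that expresses the glucocorticoid receptor (GR) constitutively, and all groups share this line and growth in steroid-depleted medium. For BCOR binding (ChIP-seq), cells received 100 nM dexamethasone (dex, a synthetic glucocorticoid) or its ethanol vehicle for 1 h, with 2 libraries per treatment. For poly(A) RNA, cells carried a pool of small interfering RNAs (siRNAs) against BCOR (siBCOR) or a non-targeting pool (siNON), each at 20 nM for 72 h, and received 100 nM dex or vehicle for 6 h. Each of the 4 combinations of siRNA and treatment had 4 RNA libraries. Binding and RNA were therefore read at different times, and binding was not read in siRNA-treated cells.

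BCOR is a corepressor that belongs to the Polycomb complex PRC1.1, which also holds PCGF1, RING1A or RING1B, RYBP or YAF2, and KDM2B. KDM2B binds unmethylated CpG dinucleotides and carries the complex to CpG islands, the CpG-rich stretches that lie at most mammalian promoters, where the RING subunits place ubiquitin on histone H2A. BCOR was first found as a partner of the repressor BCL6. The glucocorticoid receptor is a hormone-activated transcription factor that mostly binds far from start sites.

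The 8 promoters below belong to genes with a promoter peak on which the later results turn. ID1, ID2, ID3 and ID4 encode inhibitors of basic helix-loop-helix factors and form a family in which each member had a peak. RASD1, a Ras-like G protein, and PHLDA1, a pleckstrin-homology protein, were among the members that rose most with hormone, HOXA9 is a homeobox gene that fell, and ARRDC4, an arrestin-domain protein, fell with hormone and rose with depletion. Each sequence runs from 250 bases before to 50 bases after the start, 5′ to 3′ on the gene's strand, from RefSeq on build GRCh38.p14. Capitals mark CpG dinucleotides.
ID1: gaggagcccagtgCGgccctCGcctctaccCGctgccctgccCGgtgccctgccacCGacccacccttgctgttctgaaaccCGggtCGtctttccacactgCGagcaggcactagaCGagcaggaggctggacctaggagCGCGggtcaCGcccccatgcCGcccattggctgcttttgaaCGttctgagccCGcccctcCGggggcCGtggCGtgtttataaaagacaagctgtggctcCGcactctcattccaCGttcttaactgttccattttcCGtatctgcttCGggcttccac
ID2: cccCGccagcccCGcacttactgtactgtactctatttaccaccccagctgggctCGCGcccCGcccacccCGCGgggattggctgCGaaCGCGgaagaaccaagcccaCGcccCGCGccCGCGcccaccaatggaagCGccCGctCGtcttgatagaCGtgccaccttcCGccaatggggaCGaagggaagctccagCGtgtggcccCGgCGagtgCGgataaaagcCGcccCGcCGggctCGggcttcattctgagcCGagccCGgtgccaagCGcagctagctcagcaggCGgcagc
ID3: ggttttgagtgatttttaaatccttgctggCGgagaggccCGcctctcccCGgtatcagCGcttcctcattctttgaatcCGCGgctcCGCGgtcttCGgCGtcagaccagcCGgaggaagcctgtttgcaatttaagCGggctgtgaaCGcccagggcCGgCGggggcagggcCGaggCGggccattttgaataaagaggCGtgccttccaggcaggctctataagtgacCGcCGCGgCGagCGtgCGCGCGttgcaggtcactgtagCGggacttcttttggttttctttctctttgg
ID4: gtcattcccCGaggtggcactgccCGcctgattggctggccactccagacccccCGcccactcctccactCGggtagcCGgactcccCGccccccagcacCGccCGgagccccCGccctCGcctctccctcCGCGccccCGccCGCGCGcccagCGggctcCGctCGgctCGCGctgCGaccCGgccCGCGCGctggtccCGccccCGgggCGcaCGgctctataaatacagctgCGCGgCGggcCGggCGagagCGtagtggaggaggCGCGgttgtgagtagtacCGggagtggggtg
RASD1: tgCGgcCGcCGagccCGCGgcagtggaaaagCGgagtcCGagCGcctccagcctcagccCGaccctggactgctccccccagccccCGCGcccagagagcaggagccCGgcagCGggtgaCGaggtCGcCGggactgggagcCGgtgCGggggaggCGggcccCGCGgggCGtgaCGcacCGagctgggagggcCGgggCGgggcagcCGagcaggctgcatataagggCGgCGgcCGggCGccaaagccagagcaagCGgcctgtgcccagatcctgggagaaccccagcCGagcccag
PHLDA1: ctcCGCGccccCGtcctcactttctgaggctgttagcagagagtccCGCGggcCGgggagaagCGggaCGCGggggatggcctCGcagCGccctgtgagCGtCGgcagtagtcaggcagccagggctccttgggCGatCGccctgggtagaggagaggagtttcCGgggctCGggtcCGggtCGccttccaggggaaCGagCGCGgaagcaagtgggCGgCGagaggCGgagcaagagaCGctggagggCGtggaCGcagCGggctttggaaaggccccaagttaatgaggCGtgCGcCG
ARRDC4: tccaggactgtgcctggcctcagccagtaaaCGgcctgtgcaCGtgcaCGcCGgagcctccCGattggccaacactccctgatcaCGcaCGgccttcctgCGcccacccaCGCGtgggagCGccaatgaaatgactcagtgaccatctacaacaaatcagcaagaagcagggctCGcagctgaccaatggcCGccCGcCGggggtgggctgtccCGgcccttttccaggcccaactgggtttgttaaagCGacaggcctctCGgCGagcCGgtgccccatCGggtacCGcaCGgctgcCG
HOXA9: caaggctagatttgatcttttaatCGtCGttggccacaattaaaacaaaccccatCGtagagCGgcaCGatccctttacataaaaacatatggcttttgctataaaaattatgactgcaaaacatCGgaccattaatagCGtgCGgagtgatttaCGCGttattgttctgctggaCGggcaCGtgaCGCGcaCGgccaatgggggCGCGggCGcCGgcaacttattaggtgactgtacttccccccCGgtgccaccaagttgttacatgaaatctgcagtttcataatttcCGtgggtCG
In GRCh38.p14 these stretches lie at chr20:31605039-31605338 (plus strand, ID1), chr2:8681806-8682105 (plus, ID2), chr1:23559452-23559751 (minus, ID3), chr6:19837120-19837419 (plus, ID4), chr17:17496346-17496645 (minus, RASD1), chr12:76031727-76032026 (minus, PHLDA1), chr15:97960453-97960752 (plus, ARRDC4) and chr7:27165488-27165787 (minus, HOXA9). They held 22 (ID1), 33 (ID2), 27 (ID3), 39 (ID4), 33 (RASD1), 32 (PHLDA1), 24 (ARRDC4) and 22 (HOXA9) CpGs. GC content ran from 48.0% (HOXA9) to 76.3% (ID4 and RASD1). The ratio of observed to expected CpGs was 0.76 to 1.27, so each of the 8 promoters was CpG-rich. None of the 8 held the receptor's motif, GNACA and TGTNC with 3 bases between them, on either strand. The peaks are in hg19, and no position was carried from one build to the other.

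In hg19 the ID4 peak was at chr6:19837662-19838028, with its centre 244 bp downstream of the start site, inside the transcribed gene. The ID1 peak lay at chr20:30192579-30192913, centred 340 bp upstream, and the ID2 peak at chr2:8821393-8821711, centred 561 bp upstream. The ID3 peak, at chr1:23885176-23885513, was centred 940.5 bp downstream. The peaks of RASD1 (chr17:17399844-17400229) and HOXA9 (chr7:27205309-27205661) were centred 327.5 and 336 bp upstream. Those of PHLDA1 (chr12:76425160-76425478) and ARRDC4 (chr15:98504253-98504571) were centred 237 and 479 bp downstream. Each of the 8 centres was more than 50 bp downstream or more than 250 bp upstream of its hg19 start site, so the sequences show the promoter beside the peak centre. Over all members the centre of the nearest peak lay within that window for 631 of 3427 symbols (18.4%).

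The promoter peaks flanked the start site rather than sitting on it. The median distance from centre to nearest start site was 292 bp, and 738 peaks (24.1%) covered a start site. More peaks were centred downstream (1782, 58.2%) than upstream (1280). Their density was 399.3 per 100 bp at 100 to 250 bp downstream, against 198 per 100 bp in the first 100 bp downstream and 186 in the last 100 bp upstream. It was 198.4 per 100 bp at 250 to 500 bp upstream, and it fell to 62 and 78.4 per 100 bp beyond 500 bp on either side. At the edge of the rule, 13 shared peaks lay in the last 10 bp inside the limit of 1000 bp and 6 in the first 10 bp outside it. A window of 500 bp gave 2362 peaks and a window of 2000 bp gave 3513.

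**Figure D1:**
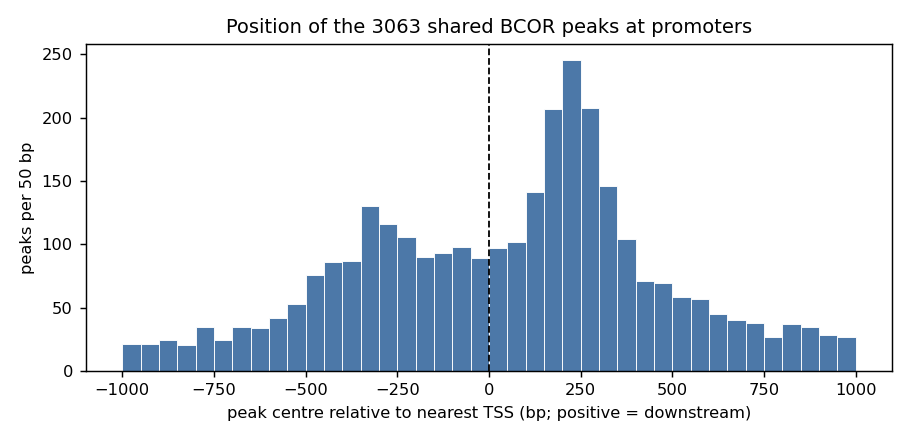
Number of the 3063 shared BCOR promoter peaks in each 50 bp step of distance from peak centre to the nearest start site, with positive distances downstream. The highest columns stand 150 to 300 bp downstream, a lower rise stands about 300 bp upstream, and the start site itself (dashed line) lies in a dip.

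The deposited peaks carry a score of 0, so no height can be given. Promoter peaks were 319 to 654 bp wide with a median of 335 bp. Their names end in 1 for 2049 peaks and in 2 for 1014 (33.1%, against 35.4% of the other shared peaks), and what this digit stands for is not given in the sources used here. Peaks whose name ends in 1 had widths of exactly 319 bp (1011 peaks, 49.3%) or 335 bp (1038 peaks, 50.7%). Of the other shared peaks with that digit, 36.6% were 319 bp wide. The same widths mark the other lists: 265 of 267 vehicle-enriched peaks were 319 bp wide, and 2997 of 3055 dex-enriched peaks were 335 bp wide.

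Position by class differed widely among the 3 lists. A promoter held 35.7% of shared peaks, 48.7% of vehicle-enriched peaks (130 of 267) and 6.94% of dex-enriched peaks (212 of 3055). Few genes had more than a single class: 21 symbols with a shared promoter peak also had a dex-enriched one and 14 a vehicle-enriched one. PRKAG2, a subunit of the energy-sensing kinase AMPK, had 4 shared promoter peaks, more than any other symbol. CREM, a cAMP-response factor, ERBB3, a receptor of the EGF receptor family, DGKH, a diacylglycerol kinase, and DCST1-AS1, an antisense transcript, were among 12 symbols with 3.

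Of these peaks, 539 (17.6%) had start sites of 2 or more gene symbols within 1000 bp of their centre. Whether a peak lay between the start sites was not counted. A single symbol was within reach of 2521 peaks, 2 symbols of 520 peaks and 3 or 4 of 19 peaks, and 3 peaks reached unnamed transcripts alone. In 471 of the 520 cases the 2 symbols were read in opposite directions. Pairs of this kind included CDK2 with PMEL, the replication gene CDC45 with UFD1, COL4A1 with COL4A2, and SOCS2 with SOCS2-AS1. A start site of another gene on the opposite strand within reach was present for 28.7% of tested genes with a peak and 24.1% of the others. A gene with more start sites has more chances to match the rule, and 17% of tested genes with 1 annotated start site had a promoter peak, against 31.4% of those with 4 or more.

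Among tested genes 19.1% had a shared promoter peak, and this is the share against which families are read. No enrichment test was made. Several families of developmental regulators lay above it: 5 of 12 ID, HES and HEY genes (ID1, ID2, ID3, ID4 and HEY1), 12 of 36 FOX genes, 10 of 36 HOX genes, 4 of 11 TBX genes, 3 of 6 DLX genes and 2 of 4 GATA genes. Other such families lay near or below it: 1 of 14 SOX genes (SOX12), 1 of 9 LIM homeobox genes, 1 of 7 PAX genes and 2 of 10 NKX genes. Of 86 tested genes on a list of developmental regulators that Polycomb often covers, 26 (30.2%) had a peak, among them PAX6, ZIC2, OLIG2, SIX2, EN2 and NEUROG2. That list includes HOX, FOX, TBX, DLX and GATA genes already counted above.

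Several signalling and stress lists were also above the share of all tested genes. A peak was present at 11 of 25 targets of the tumour suppressor p53 (44.0%), including MDM2, which degrades p53, the death receptor FAS, and the DNA repair genes XPC and DDB2. It was present at 10 of 26 immediate early genes (38.5%), among them FOS, FOSB, FOSL1, JUND, EGR2 and NR4A1. Semaphorins and plexins, axon guidance ligands and receptors, had 10 of 27 (37.0%). Cholesterol synthesis and uptake genes had 9 of 25 (36.0%), including the regulator gene SREBF1.

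Other large families were nearer to that share or below it. Cytosolic ribosomal protein genes had 17 of 82 (20.7%), solute carriers 61 of 277 (22.0%), and mitochondrial ribosomal protein genes 13 of 77 (16.9%). Zinc finger genes named ZNF had 66 of 484 (13.6%), cadherins and protocadherins 6 of 61 (9.84%), and ubiquitin-specific proteases 3 of 48 (6.25%). Genes of the G2/M phase had 3 of 38 (7.89%), against 9 of 42 (21.4%) for G1/S genes. None of 422 olfactory receptor genes in the table and none of 93 keratin-associated genes had a peak, though 7 and 2 of these were tested. Within PRC1.1 itself, RYBP and YAF2 had a peak of 11 genes, and BCOR had none at its own promoter. MTF2 was the PRC2 gene with a peak, of 11. The receptor gene NR3C1 had none.

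**Figure D2:**
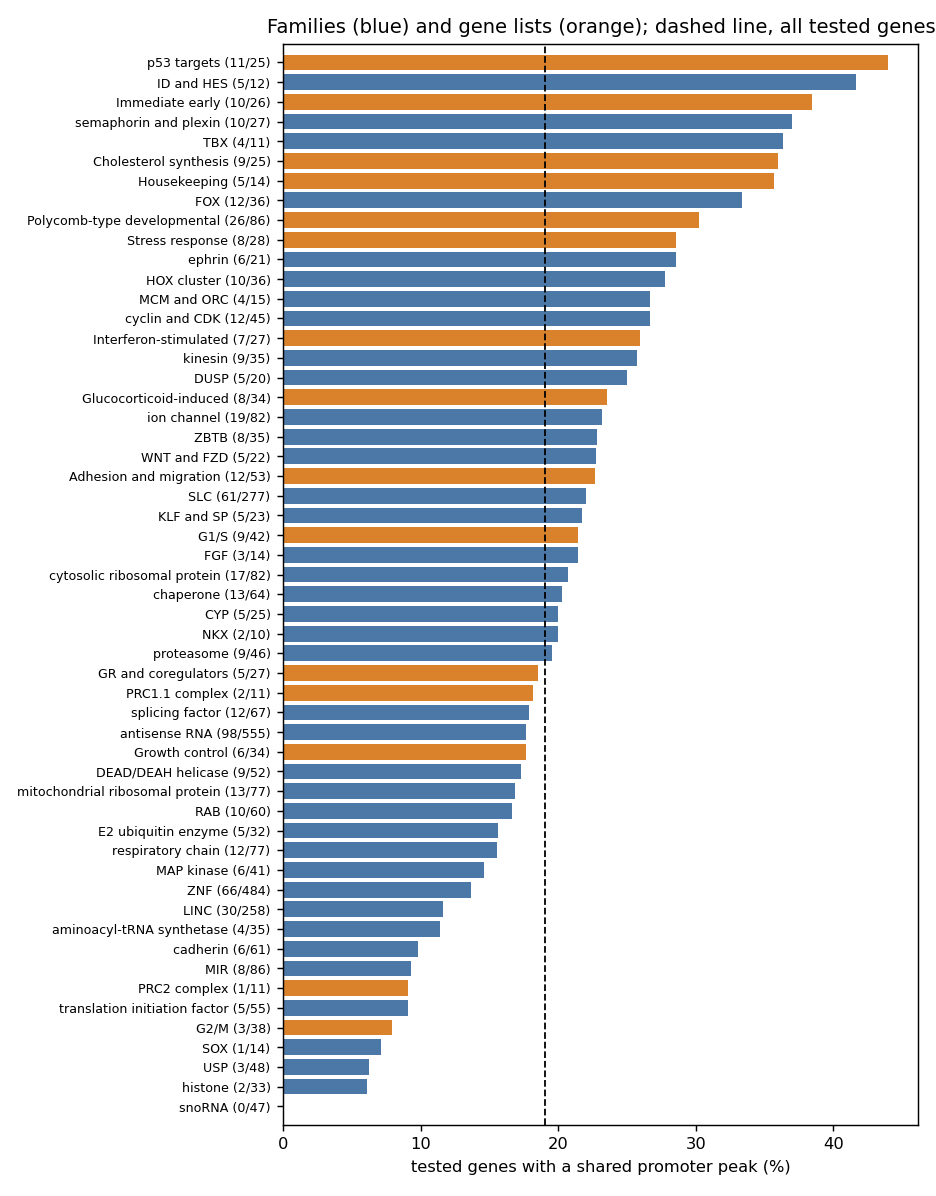
Percent of tested genes with a shared BCOR promoter peak in each family (blue) or gene list (orange) with at least 10 tested genes, with counts in brackets; the dashed line marks all tested genes (19.1%). p53 targets (44.0%) and the ID and HES family (41.7%) stand at the top, while G2/M, SOX, USP and histone genes stand under 8% and snoRNA genes at 0.

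Members were spread over all chromosomes, but not evenly. The share of tested genes with a promoter peak was lowest on chromosomes 11 (8.85%), X (9.57%) and 4 (10.1%). It was highest on chromosomes 14 (26.8%), 10 (26.2%), 20 (26.1%) and 21 (25.9%).

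RefSeq promoter sequences matched 2383 of the 2882 tested protein-coding genes with a peak (82.7%) and 80.8% of those without. The first promoter listed was used where a gene had several. A ratio of observed to expected CpGs of at least 0.6, a common mark of CpG islands, was reached by 87.2% of promoters with a peak and 79.3% of those without. Ratios under 0.3 were found in 4.28% and 9.38%. The share of genes with a peak was 9.76% where the ratio was under 0.2 and 22.4% where it was 0.6 to 0.8. Median GC content was 66.7% with a peak and 65.0% without.

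Short motifs were set against all tested protein-coding genes, which include the members, and the common ones differed little. Read on both strands, GGGCGG, the GC box of SP and KLF factors, was in 73.1% of promoters with a peak and 69.3% of those of all tested protein-coding genes. CCGGAAG, an ETS motif, was in 16.2% against 18.0%, and CCAAT, bound by NF-Y, in 34.5% against 36.3%. The receptor's motif was in 0.168% (4 promoters) against 0.215%. TTCCTNGAA, a motif of BCOR's partner BCL6, was in 0.629% (15 promoters) against 1.06%, and in 1.18% of promoters without a peak. Motifs of the factors NRF1 (1.64% against 2.19%) and YY1 (1.93% against 2.57%) were also rarer with a peak. These differences were not tested. Matches can overlap, and a match is a description of these letters, not a binding site.

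Genes with a promoter peak were more highly expressed than others. In siNON vehicle cells their median level was 8.29 CPM per kb (counts scaled to the library total, per kilobase of transcript), against 5.89 for tested genes without a peak. Over the 4 libraries these medians ran from 7.93 to 8.59 and from 5.66 to 6.21, so the ranges of the medians did not overlap. The libraries read the same genes, so these ranges do not measure the spread between genes. Levels of single genes overlapped widely, with quartiles of 2.94 and 22.1 CPM per kb with a peak and 1.37 and 17.7 without. The difference lay mostly at the low end: 11.2% of members were under 1 CPM per kb, against 21.2% of the others. With tested genes ranked by level into 10 equal classes, 9.06% of the lowest class had a peak and 13.8% to 23.2% of the other classes. Among protein-coding genes with too few reads to test, 1.63% had one. Since 294 of the 3427 symbols were not tested, the median covers 3133 of them.

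**Figure D3:**
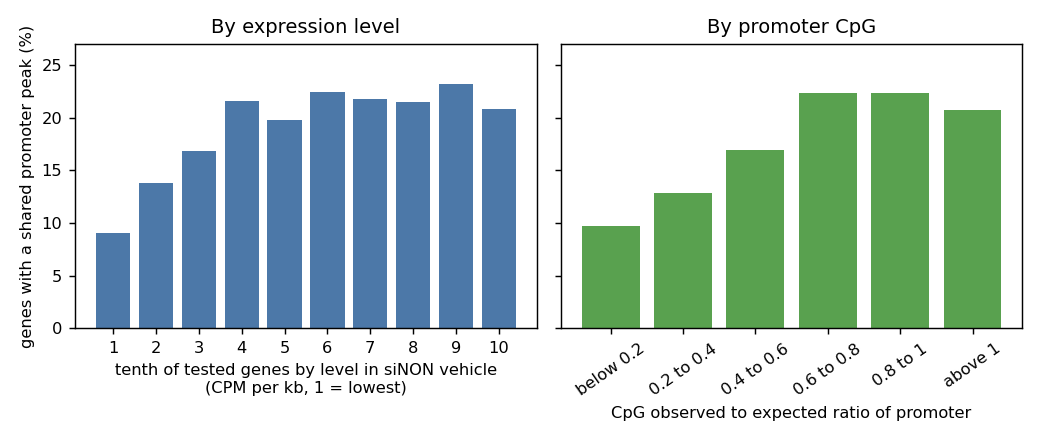
Percent of tested genes with a shared BCOR promoter peak in 10 equal classes of expression level in siNON vehicle (left) and, for tested protein-coding genes, in classes of promoter CpG ratio (right). Both panels rise from under 10% in the lowest class to about 20% and then level off.

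The highest level among members was that of GAPDH. The glycolytic enzyme gene GAPDH had 3531 CPM per kb in siNON vehicle, and RPS18, RPL4 and RPS4X, which encode ribosomal proteins, had 3365, 2749 and 2714. RPS18 is listed with 6 copies, so its reads are uncertain. The actin gene ACTG1 and the creatine kinase gene CKB were also among the top 10. In all, 144 members had at least 100 CPM per kb.

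The libraries held 18580294 to 28054808 counts over the transcripts used, and member genes took 22.4% to 23.2% of them. BCOR fell with its siRNA from 196 ± 29.4 to 22.4 ± 0.795 CPM in vehicle (mean ± SD, n = 4; log2 change -3.13 ± 0.12 SE) and from 93.8 ± 15.9 to 14.7 ± 0.706 CPM in dex. Tests are two-sided and are edgeR's quasi-likelihood F test with Benjamini-Hochberg adjustment over 16432 genes, and a gene is called at an adjusted p under 0.05. HEK293 markers summed to 1115 to 1498 CPM, and none was at 0 in every library. Immune markers summed to 10.8 to 17.8 CPM, endothelial ones to 2.21 to 4.49, fibroblast ones to 26 to 50.1 and epithelial ones to 331 to 535. The epithelial sum was 486 to 535 CPM in siNON vehicle and 364 to 398 in siNON dex. It was 436 to 445 in siBCOR vehicle and 331 to 363 in siBCOR dex, and its part in the hormone results was not tested. By siNON means, KRT19 fell with dex from 201 to 106 CPM, EPCAM from 275 to 241 and CDH1 from 33.9 to 30.8. CLDN4 went from 0.737 to 0.483 and KRT14 from 0.0325 to 0.0108, while KRT5 rose from 0.0199 to 0.530. The keratin genes KRT8 (397 to 572) and KRT18 (177 to 234), listed as HEK293 markers, rose. Libraries siNON dex replicate 4, siNON vehicle replicate 3 and siBCOR vehicle replicate 2 stood apart from their groups: over 2835 well-counted members the SD of log2 differences from the other 3 libraries was 0.30, 0.29 and 0.28 for these, and 0.11 to 0.19 for the other 13. In bulk RNA, fewer cells of a kind and less RNA per cell cannot be told apart.

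Hormone changed members in both directions. In siNON cells 381 of 3133 members were higher (12.2%; 10.7% of all tested genes were called higher) and 359 lower (11.5%; 8.64% of all). In siBCOR cells 355 were higher (11.3%; 10.5% of all) and 535 lower (17.1%; 12.5% of all). The median log2 change of members was near 0 in both (-0.00 and -0.02). At 2-fold or more, 60 members rose (1.92%; 2.4% of all tested genes) and 55 fell (1.76%; 1.38% of all) in siNON cells. In siBCOR cells 65 rose (2.07%; 2.47% of all) and 44 fell (1.4%; 1.1% of all). The 2 comparisons share no library. In both, 209 genes were called higher (54.9% of those in siNON and 58.9% of those in siBCOR) and 257 lower (71.6% and 48.0%). This overlap was counted for members alone, so no share over all tested genes stands beside it. With replicate 4 of siNON dex and replicate 3 of siNON vehicle left out, 603 members were higher in siBCOR cells, and 18.8% of all tested genes. Those libraries are in neither group compared, but they enter the shared filter, scaling and estimate of spread. The median log2 change of all tested genes went from 0.003 to 0.011 without them. Which of these steps moved the count was not tested.

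For comparison, of 178 tested genes whose promoter peak was dex-enriched and not shared, 50 (28.1%) were higher and 9 (5.06%) lower in siNON cells. The difference between the classes was not tested. Members whose shared peak covered a start site had 12.2% higher and 13.8% lower, and those whose peak covered none 12.2% and 10.8%.

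**Figure D4:**
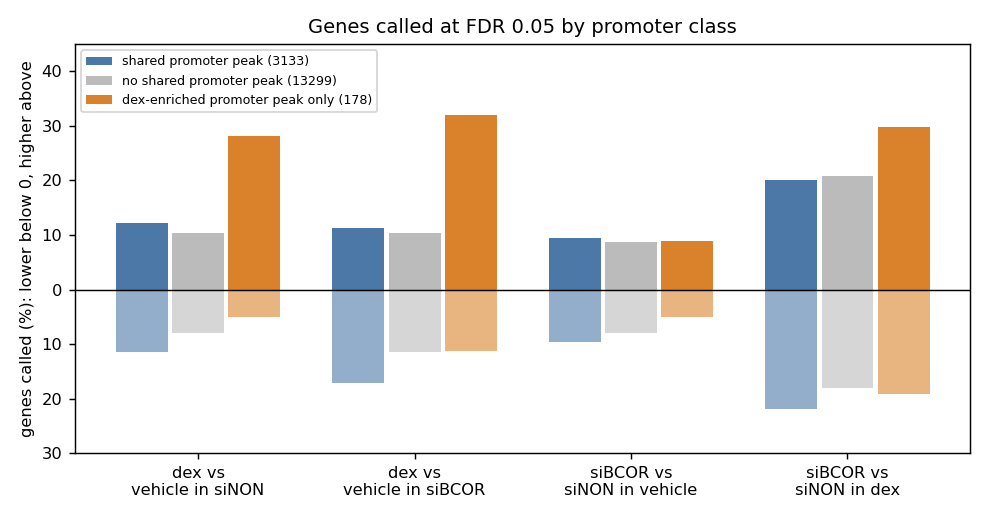
Percent of tested genes called higher (above 0) and lower (below 0) in each comparison for genes with a shared BCOR promoter peak, for genes with none, and for genes whose promoter peak is dex-enriched alone. Genes with a shared peak stay within about 6 points of genes without, while the dex-enriched class has 28.1% called higher with dex in siNON cells.

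Among the named members that rose, RASD1 changed most. Its level was 0.836, 0.726, 0.719 and 1.26 CPM in siNON vehicle and 63.0, 63.6, 66.5 and 55.8 CPM in siNON dex (log2 change 6.13 ± 0.14 SE, adjusted p = 3.35e-15). In siBCOR cells it went from a mean of 0.719 to 50.2 CPM (6.12 ± 0.15). Groups with and without hormone did not overlap in either kind of cell. Genes named for the largest changes, here and below, were taken from those without overlap. Their lack of overlap is therefore no further support.

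SGK1, a kinase that controls sodium transport, had 4.78, 4.16, 5.50 and 4.15 CPM in siNON vehicle and 93.4, 104, 86.6 and 96.7 CPM in siNON dex (log2 change 4.35 ± 0.11). PHLDA1 had 7.21, 7.50, 7.91 and 7.90 CPM without hormone and 66.5, 75.8, 66.1 and 77.5 CPM with it (3.23 ± 0.09). For both genes each dex library was far above each vehicle library. CEBPD, a transcription factor gene of the acute-phase response, rose by 3.58 ± 0.20 in siNON and 4.15 ± 0.20 in siBCOR cells. MYOM2, a sarcomere protein gene, went from 107 to 707 CPM (2.72), and PNMT, the enzyme that makes adrenaline, from 1.26 to 10.4 CPM (3.05).

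Of 8 members on a list of known glucocorticoid-induced genes, 6 rose in siNON cells and 1, CITED2, fell; of 26 listed genes without a peak 18 rose and none fell. The 6 included CRISPLD2 (log2 change 2.09), ZBTB16 (1.29) and FOXO3 (0.42). GLUL, glutamine synthetase, was not called in siNON cells. KLF15 (1.74), SP6 (1.17) and KLF7 (0.78), factors of the KLF and SP family, rose in siNON cells and again in siBCOR cells.

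The 5 ID, HES and HEY members fell with hormone in siNON cells, and 3 of them fell in siBCOR cells. Of the tested genes of this family without a peak, 4 fell, 3 were not called and none rose in each kind of cell. ID4 had 88.5, 81.3, 97.0 and 93.5 CPM in siNON vehicle and 14.1, 16.2, 11.6 and 17.4 CPM in siNON dex (log2 change -2.61 ± 0.11, adjusted p = 1.03e-11). In siBCOR cells ID4 went from 103 ± 7.97 to 20.1 ± 2.21 CPM. The vehicle and dex libraries were far apart in both.

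ID3 had 19.5, 19.8, 16.9 and 21.8 CPM in siNON vehicle and 10.2, 8.90, 8.30 and 7.90 CPM in siNON dex (-1.14 ± 0.13), with no overlap. ID1 was low, at 2.67, 1.89, 2.37 and 2.30 CPM without and 1.48, 1.04, 0.894 and 0.729 CPM with hormone (-1.14 ± 0.18, adjusted p = 0.000103). In siBCOR cells the ID1 change was -0.45 (adjusted p = 0.0626) and was not called. ID1 and ID3 were singled out after their values were seen, to complete the family. HEY1, a Notch target, fell by 1.37 in siNON and by 1.05 in siBCOR cells.

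ID2 differed from its relatives. It had 60.8, 56.2, 67.8 and 67.9 CPM in siNON vehicle, 49.0, 52.9, 50.2 and 54.7 CPM in siNON dex, 93.4, 84.7, 94.3 and 100 CPM in siBCOR vehicle and 106, 112, 98.9 and 102 CPM in siBCOR dex. It fell slightly with hormone in siNON cells (-0.29 ± 0.07) and rose with depletion in vehicle (0.56 ± 0.07) and in dex (1.02 ± 0.07, adjusted p = 1.08e-07). Each siBCOR library was above each siNON library. ID2 shares its peak with ID2-AS1, and whether counting separated the strands is not given in the sources used here.

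HOX members also fell with hormone. Of the 10 with a peak, 8 fell in siNON cells, HOXB4 rose (0.36) and HOXC13 was not called; of 26 HOX genes without a peak, 22 fell and 1 rose. HOXA9 had 162, 152, 152 and 151 CPM in siNON vehicle and 41.3, 40.9, 37.2 and 36.2 CPM in siNON dex (log2 change -1.99 ± 0.06). HOXB8 (-1.88), HOXD11 (-1.08) and HOXA4 (-0.94) fell as well. In siBCOR cells 8 again fell, with HOXA9 at -1.94. Across the list of Polycomb-type developmental genes, 16 of 26 members fell and 1 rose in siNON cells (median -0.58), against 39 and 4 of 60 without a peak (median -0.54).

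Further named members fell as well. RGS16, which shortens G-protein signals, went from 65.3, 63.7, 57.9 and 70.6 CPM to 15.2, 17.2, 16.1 and 15.4 CPM (-2.01 ± 0.09). TRIB1, a pseudokinase, fell by 2.00 and GPRC5A, an orphan receptor, by 1.98. The netrin receptor gene UNC5B fell by 1.78 and LGR5, a receptor gene of the Wnt pathway, by 1.80. The cyclin gene CCND1 fell from 127 to 74.4 CPM (-0.77), the mineralocorticoid receptor gene NR3C2 from 18.3 to 9.43 CPM (-0.96) and HMOX1, haem oxygenase, from 24.0 to 11.7 CPM (-1.03). In siBCOR cells these 3 fell too, by 0.84, 1.08 and 0.82.

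Depletion of BCOR without hormone changed few members by a large amount. In vehicle 298 of 3133 members were higher (9.51%; 8.87% of all tested genes) and 303 lower (9.67%; 8.23% of all). The higher count was 185 without siBCOR vehicle replicate 1 (5.38% of all tested genes). A fit of the compared groups alone gave 158 higher (4.55% of all) and 171 lower (5.05% of all). The split depended on scaling. DESeq2's size factors in edgeR gave 212 higher (6.38% of all tested genes) and 335 lower (9.37% of all). Of called members 38.8% were then higher, against 49.6% in the main fit. At 2-fold or more 5 rose (0.160%; 0.298% of all) and 24 fell (0.766%; 0.590% of all). The median log2 change of members was 0.02, and that of all tested genes was 0.02. With those same 2 siNON libraries left out the lower count was 555, with 15.1% of all tested genes called lower.

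In the presence of hormone, 629 members were higher with depletion (20.1%; 20.7% of all tested genes) and 686 lower (21.9%; 18.8% of all). At 2-fold or more 14 rose and 34 fell (0.749% and 0.937% of all tested genes). The higher count was 369 to 402 when siNON dex replicate 1, 2 or 3 was left out and 818 without replicate 4. The 2 depletion comparisons share no library: 137 genes were higher in both and 247 lower in both, which are 46.0% and 81.5% of those called in vehicle. This overlap too was counted for members alone. In dex 44.2% of members in the highest of the 10 level classes were lower and 10.1% in the lowest class, and genes without a peak had a like gradient, from 40.02% to 7.49%.

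SOCS2, a suppressor of growth hormone and cytokine signals, rose most among the named members. It had 5.53, 7.69, 7.07 and 7.18 CPM in siNON vehicle and 17.4, 20.1, 18.6 and 18.9 CPM in siBCOR vehicle (log2 change 1.45 ± 0.09, adjusted p = 8.12e-08). In dex it went from 11.1, 11, 9.75 and 10.2 CPM to 33.3, 34.4, 31.8 and 31.5 CPM (1.64 ± 0.09). Each siBCOR library was well above each siNON library under the same treatment, and the peak, centred 47 bp upstream of the SOCS2 start site and covering it, is also the promoter peak of SOCS2-AS1.

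STON1, an endocytic adaptor gene, rose from 8.19 ± 1.13 to 15.8 ± 1.27 CPM in vehicle (0.94 ± 0.12) and from 5.06 to 10.3 CPM in dex (1.03 ± 0.13). SNX12, a sorting nexin of endosomes, had 61.1, 55.3, 63.8 and 66.4 CPM in siNON vehicle and 111, 98.5, 105 and 105 CPM in siBCOR vehicle (0.77 ± 0.06). Its groups did not overlap. ARRDC4 rose with depletion from 60.4 ± 11 to 92.7 ± 6.76 CPM in vehicle (0.62 ± 0.11) and from 11.5 ± 1.25 to 23.7 ± 1.61 CPM in dex (1.05 ± 0.12), while hormone lowered it by 2.40 and 1.96 on the log2 scale. The coactivator gene NCOA3, whose product binds the receptor, rose by 0.62 in vehicle and 0.52 in dex.

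Among the named members that fell in vehicle, PCGF5, a ring-finger Polycomb protein of other PRC1 complexes, changed most. PCGF5 had 34.8, 31.3, 61.0 and 35.2 CPM in siNON vehicle and 14.9, 9.26, 12.1 and 9.32 CPM in siBCOR vehicle (-1.83 ± 0.24, adjusted p = 9.9e-05). The groups did not overlap. The highest value came from siNON vehicle replicate 3, and without it the PCGF5 change was -1.62. In dex it was -1.15, and -0.88 without replicate 4 of siNON dex.

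PLPPR2, a lipid phosphatase-related membrane protein, had 25.5, 22.2, 17.9 and 24.7 CPM in siNON vehicle and 6.15, 9.4, 6.18 and 6.77 CPM in siBCOR vehicle (-1.67 ± 0.15). ZNF512B, a zinc finger protein, had 146, 126, 120 and 133 against 53.4, 70.5, 54.5 and 59.3 CPM (-1.14 ± 0.10), and IQSEC1, an exchange factor for ARF6, 110, 102, 82.6 and 97.5 against 45.8, 49.1, 45.8 and 45.1 CPM (-1.08 ± 0.11). None of the 3 had overlapping groups, and in dex they fell by 1.94, 1.27 and 1.35. Lack of overlap was a condition for naming genes by their largest changes. FSCN1, the actin-bundling protein fascin, fell from 73.8 to 35.3 CPM (-1.06), and the plexin gene PLXNA4 from 7.80 to 3.02 CPM (-1.36). FOXK2 and FOXO3 fell by 0.92 and 0.66 in vehicle and by 1.06 and 0.81 in dex.

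**Figure D5:**
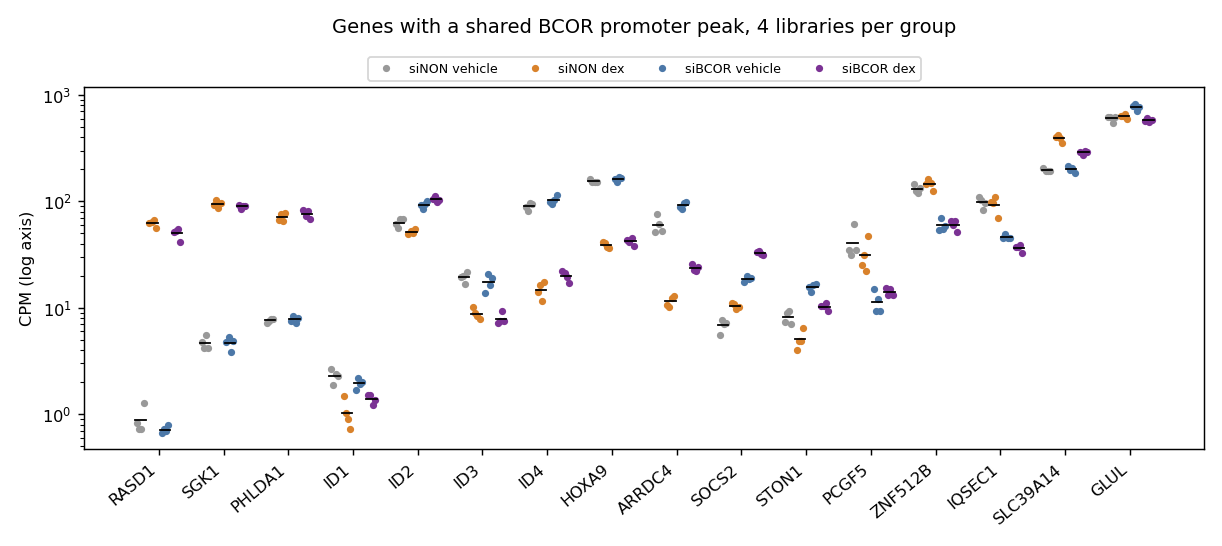
CPM in each library (points) and group means (short lines) on a log axis for 16 genes with a shared BCOR promoter peak, coloured by group. RASD1, SGK1 and PHLDA1 are higher and ID4, HOXA9 and ARRDC4 lower with dex under either siRNA, while SOCS2 and STON1 are higher and ZNF512B and IQSEC1 lower with siBCOR.

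Replication and ribosomal members fell more often than they rose. Of 9 G1/S members 3 fell in vehicle and 7 in dex, where 1 rose (RFC3, 0.37); UHRF1, which maintains DNA methylation, fell by 0.50 and 0.59 and the helicase subunit gene MCM3 by 0.22 and 0.40. Of 33 G1/S genes without a peak 16 fell and 2 rose in dex. Of 17 ribosomal protein members 5 fell in vehicle and 13 in dex, and none rose (32 and 42 of 65 without a peak fell). GAPDH fell by 0.35 and 0.50. The fibroblast growth factor receptor gene FGFR1 fell by 0.72 and 0.66, and in dex 5 of 6 growth-control members fell, as did 14 of 28 growth-control genes without a peak (18.8% of all tested genes were lower). DHCR7, which acts late in cholesterol synthesis, fell by 0.52 in vehicle and by 0.81 in dex.

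None of the 10 HOX members was called after depletion in vehicle, and 3 rose in dex. Of 26 HOX genes without a peak 10 rose and 1 fell in vehicle, and 9 rose and 1 fell in dex. The difference between these groups was not tested. Of 11 p53-target members none was called in vehicle, and 3 rose and 3 fell in dex. RYBP (0.36, adjusted p = 0.0624) and YAF2 (0.47, adjusted p = 0.0561) were not called in dex. Of 9 kinesin members 5 rose in dex and none fell, among them KIF3B (0.49) and KIF16B (0.64), while of 26 kinesin genes without a peak 8 rose and 3 fell, and 20.7% of all tested genes were higher.

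Of 251 tested non-coding genes with a promoter peak, 33 rose and 10 fell after depletion in vehicle (13.1% and 3.98%; 8.87% and 8.23% of all tested genes). In dex 59 rose and 16 fell (23.5% and 6.37%; 20.7% and 18.8% of all), and 176 were not called. Of 98 antisense RNA genes with a peak 26 rose and 5 fell in dex, and of 457 without a peak 83 rose and 32 fell. TPT1-AS1 rose by 0.79 in vehicle and by 0.60 in dex, and ARRDC3-AS1 by 1.09 in dex. TPT1-AS1 shares its peak with TPT1 and ARRDC3-AS1 with ARRDC3.

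Tested coding pairs on opposite strands that share a peak numbered 217. With dex in siNON cells 12 had both genes called, 11 of them in the same direction. In 52 pairs 1 gene was called. After depletion in dex, 38 pairs had both called, 30 in the same direction, and 104 had 1 gene called. Pairs without a shared peak were not counted, so these numbers do not set the members apart. In the pair CDK2 and PMEL, both fell in dex, by 0.38 and 1.24.

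The hormone effect was compared between siNON and siBCOR cells by the interaction. No member was higher and 2 were lower in edgeR (0.0183% and 0.0791% of all tested genes), with 629 members, and 3164 of all tested genes, at an unadjusted p under 0.05. DESeq2 called 7 members higher (0.223%; 0.219% of all) and 10 lower (0.319%; 0.274% of all). These shares are near those of all genes. SLC39A14, a zinc and iron transporter, rose with dex from 206, 194, 191 and 194 to 405, 425, 396 and 354 CPM in siNON cells, and from 217, 198, 204 and 184 to 293, 275, 300 and 289 CPM in siBCOR cells (interaction -0.48 ± 0.09, adjusted p = 0.0472). Its 4 siBCOR dex libraries lay below its 4 siNON dex libraries. GLUL had 626, 624, 546 and 623 then 630, 636, 660 and 592 CPM in siNON cells, and 793, 827, 707 and 766 then 566, 614, 560 and 586 CPM in siBCOR cells (interaction -0.47 ± 0.09, adjusted p = 0.0472).

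GLUL fell with hormone in siBCOR cells (-0.41 ± 0.06) and was not called in siNON cells (0.06 ± 0.06). Both interaction calls were lost under 19 of the 22 other settings tried. The count of members rested on siNON dex replicate 4: without it 251 were higher (8.70% of all tested genes called higher) and 246 lower (6.62% of all). With replicate 3 of siNON vehicle left out too, 212 were higher (7.16% of all) and 133 lower (3.64% of all).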

How the data were processed

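BCOR binding and poly(A) RNA were measured in HEK293-GR cells. Per the submitters' processing notes, Bowtie 0.12.9, HOMER 4.10.3 and bedtools were among the tools used on hg19, together with FastQC, Trimmomatic and TopHat2. The authors deposited 3 peak lists whose score is 0 for every peak, and how the classes were set and whether libraries were pooled is not given in the sources used here. Per the file headers, the authors counted reads in exons of 65572 transcripts with HOMER, without adjustment, and these deposited counts are whole numbers. The headers set no strand option.

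A peak was called a promoter peak when its centre lay within 1000 bp of a transcript start. Each of 27896 symbols was represented by its most-read transcript, and 134 transcripts without a gene name, with 0.0664% of counts, were left out. Library totals were 18580294 to 28054808, and per-library precision is that of these counts. The 4 RNA groups were fitted together in edgeR 4.0.16 (R 4.3.3) with TMM scaling, filterByExpr and quasi-likelihood F tests, Benjamini-Hochberg adjusted over 16432 genes. The fit was tested on simulated data. Standard errors are the log2 change over the square root of F. Levels compared between genes are CPM per kb.

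Named genes were BCOR and NR3C1; the 10 called members with the largest change per direction and comparison, with at least 50 mean counts and no overlap of libraries; up to 4 called members per list; the 10 with the highest level; and those with the most peaks. Other genes were named from the family and list members or singled out after their values were seen. Members and lists were chosen with earlier results of these data known. The protocol speaks of 4 biological replicates and the series text of fewer, so p-values measure the spread between these libraries. The labels do not say what a replicate number shares, and the main fit did not pair libraries. Deviations from group means had a median correlation of -0.007 between same-numbered libraries and 0.003 between others, which cannot exclude pairing. Alternatives were DESeq2 1.42.0, other scalings, no filter, fits of the compared groups alone, a replicate block, other promoter windows and left-out libraries. Scripts used Python 3.11.15, pandas 2.3.3 and numpy 2.4.6.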

Additional observations from a re-analysis of the deposited data

Results flagged for a closer look

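Among 105 groups of 4 libraries looked at over 25 genes, 7 held a library far from the other 3, and chance gives about 1 in 20. The lowest library for NR3C1 in siBCOR vehicle had 1053 CPM. The highest for ID3 in siBCOR dex had 9.27 CPM, for HOXA9 in siNON vehicle 162 CPM and for IQSEC1 in siBCOR vehicle 49.1 CPM. In siNON vehicle, replicate 3 was the highest library for PCGF5 (61.0 CPM) and LRRC58 (134 CPM) and the lowest for GLUL (546 CPM), and it is among the 3 libraries that stood apart from their groups.

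The hormone effect was called different between siNON and siBCOR cells for GLUL (interaction -0.47 on the log2 scale) and SLC39A14 (-0.48), each with an adjusted p of 0.0472 from edgeR's quasi-likelihood test of the interaction over all tested genes. Both calls were lost under 19 of 22 other settings, the replicate block among them.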

How the results depend on the processing

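No direction reversed among 207 calls of named genes under 23 alternatives. Of 4758 values 284 lost the call, and 168 of the 207 calls were kept throughout. Those genes were picked from calls in the same libraries. Reversals were therefore unlikely, and these counts are no independent check. Without replicate 4 of siNON dex and replicate 3 of siNON vehicle together, 603 members were higher with dex in siBCOR cells, 555 were lower with depletion in vehicle, and the interaction had 212 higher and 133 lower. Members higher with depletion in vehicle numbered 195 with upper-quartile scaling (6.01% of all tested genes) and 176 with no low-count filter (3.64% of all). With the compared groups alone 158 were higher (4.55% of all) and 171 lower (5.05% of all). The interaction had 7 higher and 10 lower in DESeq2. It had 0 lower with DESeq2's size factors in edgeR, upper-quartile scaling, no filter or the replicate block, and 1 lower with the start of the most-read transcript alone. With the replicate block the other counts, higher and lower, were 362 and 339 (dex, siNON), 345 and 533 (dex, siBCOR), 281 and 298 (depletion, vehicle) and 616 and 678 (depletion, dex). Same-numbered libraries correlated over 0.1 in 6 of 24 pairs.

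Leaving out each library in turn gave 292 to 446 higher and 300 to 459 lower with dex in siNON cells, and 261 to 469 and 419 to 592 in siBCOR cells. Depletion gave 185 to 351 higher and 203 to 444 lower in vehicle, with 185 reached without siBCOR vehicle replicate 1, and 369 to 818 higher and 511 to 833 lower in dex. The interaction gave 0 to 251 higher and 0 to 246 lower. In the dex and depletion comparisons, the interaction aside, the members' share was set against that of all tested genes in 27 settings. It stood above in each, except for genes higher with depletion in dex (6 of 27). Apart from those, the lowest margins were 0.14 points (higher with depletion in vehicle) and 0.23 points (higher with dex in siBCOR cells). The settings reuse the same libraries and are not separate support. A peak covering the start site left 738 peaks, and without the filter the median level was 7.07 CPM per kb. Depth limits genes near the filter, and peak lists without scores give no binding strength.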
